A study of Mus musculus with 12 samples.

Results

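Genes of cholesterol synthesis and of fatty acid synthesis were followed across 6 groups of mouse pluripotent cells and epiblast tissue, measured on 12 expression microarrays. The gene list held 35 names from both pathways, with their regulators and sterol transporters, and a gene was measured where a probe set carried its symbol alone. In all 33 of the 35 were measured, out of 22180 genes on the arrays. They comprised 16 of 17 sterol synthesis genes, 5 of 5 regulators, 3 of 3 sterol transport genes and 9 of 10 fatty acid synthesis genes. Idi1 and Scd2 lay only on probe sets that carry a second gene symbol and were left out. Scap was the member with more than 1 probe set, and the brighter one was used.

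Each group had 2 arrays. Embryonic stem cells (ESC) were derived at embryonic day (E) 3.5 and kept in N2B27 medium with LIF, the GSK3 inhibitor CHIR99021 (3 µM) and the MEK inhibitor PD0325901 (1 µM). Epiblast stem cells (EpiSC) were derived at E5.75 and kept in N2B27 with FGF2 (12 ng/ml), Activin A (20 ng/ml) and knockout serum replacement (20%). The rsEpiSC lines, which other label fields call IS-EPI, were derived on days E5.75 and E6.5 and kept in N2B27 with IWR1 (2.5 µM), an inhibitor of Wnt signalling, and a factor (20 ng/ml) that the labels leave unnamed. The cultured lines all grew on mouse embryonic fibroblasts. Epiblast tissue, the pluripotent layer of the embryo, was taken on the same days, E5.75 and E6.5. The strain field gives an OCT4-deltaPE-GFP reporter crossed to C57BL for every sample. The labels do not say whether the arrays of a group come from separate cultures or embryos or whether tissue was pooled, so each p-value covers only the spread from array to array, part of which may be technical.

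Cells make cholesterol from acetyl-CoA through mevalonate, farnesyl diphosphate, squalene and lanosterol, and they make fatty acids from the same acetyl-CoA through malonyl-CoA. SREBP transcription factors, coded by Srebf1 and Srebf2, switch on genes of both branches. When sterols run low, the escort protein SCAP carries SREBP from the endoplasmic reticulum to the Golgi, where it is cut and released to the nucleus, and when sterols are plentiful INSIG proteins hold SCAP back. SREBP-2 acts mainly on sterol genes and SREBP-1c mainly on fatty acid genes, and NF-Y, which binds CCAAT boxes, works beside both. Liver X receptors, which sense oxysterols, switch on the sterol exporters Abca1 and Abcg1.

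The promoters of the pair of genes in each branch with the largest difference between rsEpiSC E5.75 and EpiSC are shown because both branches are described as targets of the same factors. Each sequence is the 250 bases before the RefSeq transcription start (GRCm38.p6), written from 5′ to 3′ on the gene's strand. Capitals mark matches, on either strand, to the NF-Y box CCAAT and to TCACNCCAC, a form of the sterol regulatory element that SREBP binds.
Hmgcs1, chr13:119690101-119690350, plus strand: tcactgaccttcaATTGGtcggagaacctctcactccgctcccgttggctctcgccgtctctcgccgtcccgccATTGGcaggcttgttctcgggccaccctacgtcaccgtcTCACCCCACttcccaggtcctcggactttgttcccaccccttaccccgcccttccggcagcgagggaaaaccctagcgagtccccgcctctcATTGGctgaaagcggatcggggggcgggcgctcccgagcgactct
Lss, chr10:76531355-76531604, plus strand: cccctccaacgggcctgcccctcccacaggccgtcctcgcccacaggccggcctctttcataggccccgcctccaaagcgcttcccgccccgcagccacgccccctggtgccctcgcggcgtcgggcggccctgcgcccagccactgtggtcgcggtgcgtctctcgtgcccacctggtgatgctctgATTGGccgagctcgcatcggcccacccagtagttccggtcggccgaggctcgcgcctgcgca
Fasn, chr11:120824548-120824797, minus strand: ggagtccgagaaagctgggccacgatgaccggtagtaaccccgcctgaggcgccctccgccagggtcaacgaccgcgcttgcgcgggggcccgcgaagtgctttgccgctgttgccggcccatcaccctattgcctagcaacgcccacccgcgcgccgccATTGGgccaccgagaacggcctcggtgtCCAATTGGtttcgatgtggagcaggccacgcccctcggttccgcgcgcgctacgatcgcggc
Acss2, chr2:155517793-155518042, plus strand: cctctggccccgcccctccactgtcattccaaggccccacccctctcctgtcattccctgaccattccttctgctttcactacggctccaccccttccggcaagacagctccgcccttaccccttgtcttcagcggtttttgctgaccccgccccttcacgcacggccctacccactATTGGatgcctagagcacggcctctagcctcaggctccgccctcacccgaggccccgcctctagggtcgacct

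The Hmgcs1 window held 1 match to TCACNCCAC, 137 bases before the start, and CCAAT boxes at 237, 176 and 45 bases before it. The other 3 windows held CCAAT boxes and no match to TCACNCCAC. The box lay 62 bases before the start in Lss and 73 in Acss2, and in Fasn boxes lay at 90, 62 and 59, of which the last and its neighbour overlap on opposite strands. The GC box, GGGCGG, which Sp1 binds, was searched too, likewise on both strands. Matches to the 3 motifs did not overlap one another in these windows. RefSeq promoter windows were matched for 27 of the 35 listed genes. A CCAAT box was found in 14 of 14 sterol synthesis genes with a window (100%) and in 3 of 7 fatty acid synthesis genes (42.9%: Acss2, Fasn and Me1), beside 38.7% of all 16990 genes on the arrays with such windows. A GC box was found in 13 of the 14 sterol synthesis genes (92.9%) and 4 of the 7 fatty acid synthesis genes (57.1%), beside 46.2% of all genes. TCACNCCAC was found in 1 sterol synthesis gene (7.14%) and in 1.22% of all genes. A match describes these letters in this window and is not a measured binding site.

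On the log2 scale of the arrays, both branches were highest in rsEpiSC E5.75. The mean signal of the 16 sterol synthesis genes was 7.37 and 7.41 on the ESC arrays, 8.01 and 7.87 in EpiSC, 8.83 and 9.23 in rsEpiSC E5.75, 8.54 and 8.44 in those of E6.5, 7.01 and 7.16 in epiblast E5.75, and 6.67 and 6.70 in epiblast E6.5. The mean of the 9 fatty acid synthesis genes was 7.67 and 7.20 in ESC, 7.42 and 7.77 in EpiSC, 8.79 and 9.15 in rsEpiSC E5.75, 8.54 and 8.45 in those of E6.5, 6.80 and 7.17 in epiblast E5.75, and 7.18 and 7.12 in epiblast E6.5. In both branches, as deposited, the rsEpiSC E5.75 arrays lay above every other array, the rsEpiSC E6.5 arrays came next, and the tissue arrays were lowest. The low end depends on the scaling. With arrays scaled to one interquartile range, the fatty acid means of epiblast E5.75 (7.40) and E6.5 (7.50) were above those of ESC (7.26) and EpiSC (7.38), and the sterol mean of epiblast E5.75 (7.53) was above that of ESC (7.21). Between ESC and EpiSC the sterol mean went from 7.39 ± 0.03 to 7.94 ± 0.10 (SD, n = 2) with no overlap of arrays, while the fatty acid mean was 7.44 ± 0.34 and 7.59 ± 0.25 with overlapping arrays. Between the tissue stages the sterol arrays of E6.5 lay below those of E5.75 and the fatty acid arrays overlapped. The difference between the branches was not tested. These means describe genes of unlike probe brightness, so differences between groups can be read from them and levels of one branch against the other cannot.

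**Figure D1:**
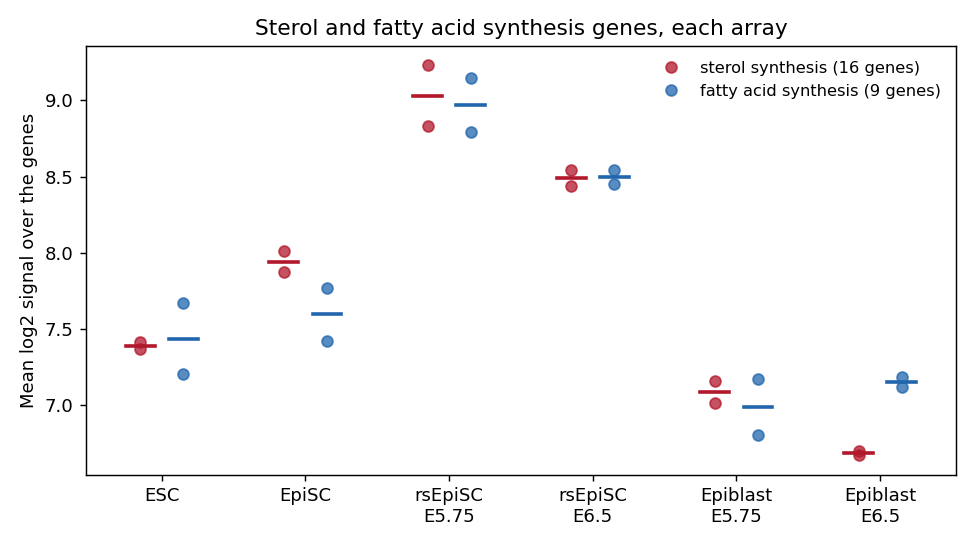
Mean log2 signal over the 16 sterol synthesis genes (red) and the 9 fatty acid synthesis genes (blue) on each array (points), with the mean of the 2 arrays (line), in 6 groups. Both branches peak in rsEpiSC E5.75 (9.03 and 8.97), and in EpiSC the sterol mean (7.94) is above that of ESC (7.39) while the fatty acid points overlap.

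By gene, the highest group mean was that of rsEpiSC E5.75 for 14 of 16 sterol synthesis genes and 6 of 9 fatty acid synthesis genes, beside 12.1% of all genes. Both rsEpiSC E5.75 arrays lay above the other 10 arrays for 10 sterol synthesis genes, 6 fatty acid synthesis genes, Srebf1, Srebf2 and Stard4, which is 19 of 33 members beside 3.62% of all genes. All 4 rsEpiSC arrays lay above the other 8 for 17 of 33 members, beside 2.86% of all genes. As deposited, the lowest mean was in epiblast E6.5 for 11 of 16 sterol synthesis genes, in ESC for 3 and in epiblast E5.75 for 2. For the 9 fatty acid synthesis genes the counts were 1, 3 and 5, and for all 22180 genes 3451, 4512 and 3667. Ebp, Abca1 and Elovl6 stood highest on both ESC arrays, as did 5.02% of all genes, and Scap was highest on both EpiSC arrays, as were 4.54% of all genes.

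**Figure D2:**
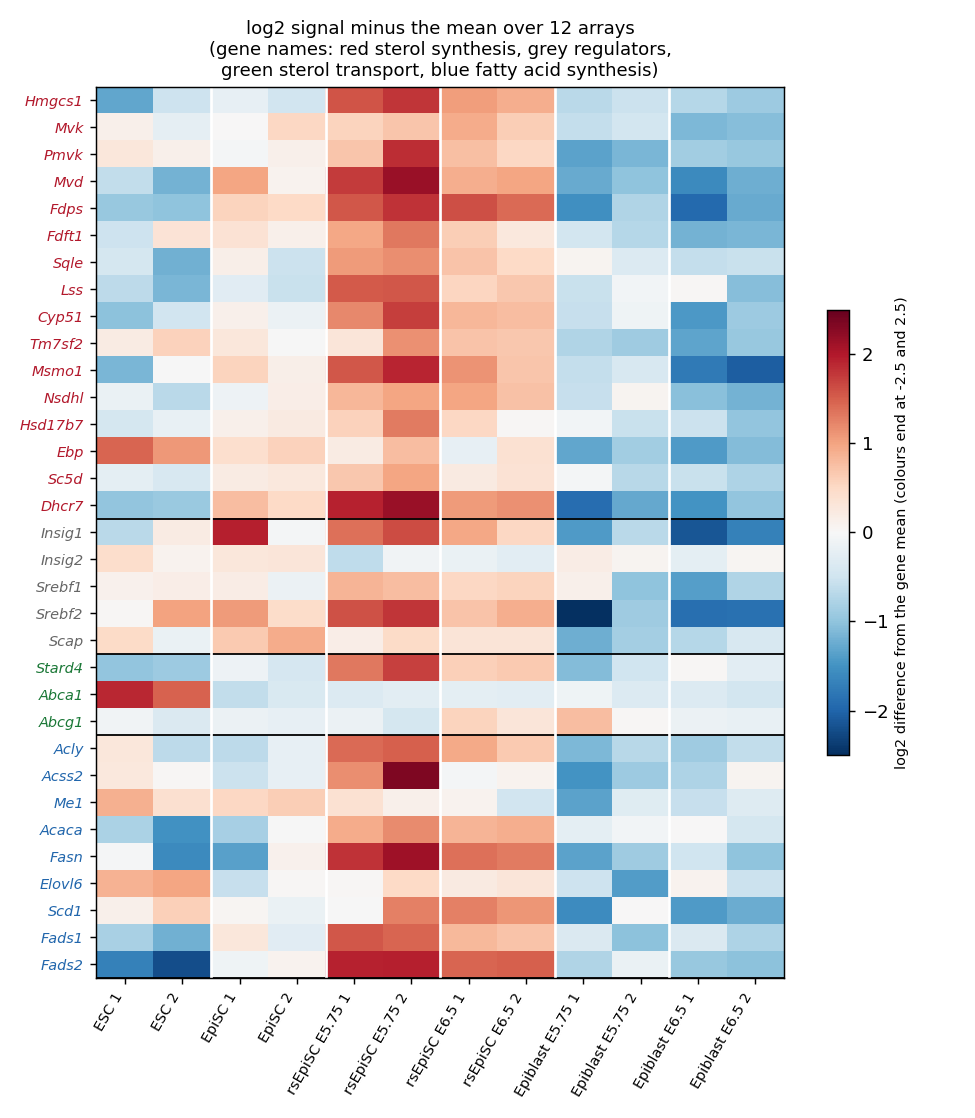
log2 signal of the 33 members on each of 12 arrays minus the gene's mean over the arrays (red above, blue below), with genes in rows grouped by role and arrays in columns. The rsEpiSC E5.75 columns are red for most sterol and fatty acid synthesis genes, and Ebp, Abca1 and Elovl6 are reddest in the ESC columns.

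Markers were set against the labelled cell types. The mean log2 signal of 5 naive state markers was 9.15 on both ESC arrays and 4.03 to 4.72 in the other groups. That of 5 primed state markers was 5.01 to 5.87 in ESC and 6.59 to 9.20 elsewhere. Against ESC, 3 of the 5 rose in EpiSC and 2 in rsEpiSC E5.75, beside 3.6% and 5.49% of all genes. In rsEpiSC E5.75 Fgf5 was low (3.78 and 4.17). The Dnmt3b and Zic5 arrays of that group overlapped those of ESC, while its Otx2 and Pou3f1 arrays lay above them. Of the pluripotency genes, Sox2 and Nanog were above the median of all values, 4.214, on every array, while Pou5f1 was 4.86 and 3.86 in rsEpiSC E5.75 and 4.84 to 7.11 elsewhere. Correlations between the 2 arrays of a group over all genes ran from 0.943 in epiblast E5.75 to 0.988 in rsEpiSC E6.5. Array means over the markers of visceral endoderm (11 genes, 4.26 to 4.64) and trophoblast (7 genes, 4.10 to 4.94) were near the median of all values. Single markers stood higher: 2 to 3 of the 11 and 1 to 4 of the 7 were above the array median on both arrays of a group. The trophoblast marker Bmp4 ranged from 4.69 to 7.48. The mean of 12 fibroblast markers, a cell type present in the feeder layer, was highest in EpiSC (5.59 to 6.02) and in rsEpiSC E5.75 (5.36 to 5.44), and lower on the arrays of rsEpiSC E6.5 (4.79 to 4.87), ESC (4.28 to 4.50), epiblast E6.5 (4.53 to 4.55) and epiblast E5.75 (4.67 to 4.68). Of the 12, 9 were above the array median on both EpiSC arrays, 7 in rsEpiSC E6.5 and in epiblast E5.75, 6 in rsEpiSC E5.75 and in ESC, and 5 in epiblast E6.5. In bulk RNA, fewer cells of a type and less RNA per cell cannot be told apart.

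Sterol and fatty acid synthesis genes rose together in rsEpiSC E5.75 compared with EpiSC, lines of the same embryonic day kept in different media. With an adjusted p of limma under 0.05 as the threshold, 8 of 16 sterol synthesis genes and 6 of 9 fatty acid synthesis genes rose and 0 fell, beside 1.56% of all 22180 genes that rose and 2.31% that fell. The median log2 difference was 1.20 over the sterol genes and 1.50 over the fatty acid genes, beside 0.02 over all genes. The medium and the line differ together here and cannot be told apart. Of 12 fibroblast markers, 1 rose (Fbln2) and 2 fell (Tagln and S100a4), and the part of feeder cells in the result was not tested. The pluripotency genes moved as well: Nanog fell by 3.47 ± 0.35 and Pou5f1 by 1.47 ± 0.33, while Sox2 rose by 3.26 ± 0.24, and their part in the result was not tested.

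Hmgcs1 codes for the HMG-CoA synthase that opens the mevalonate pathway. Its log2 signal was 8.58 and 9.37 in ESC, 9.67 and 9.39 in EpiSC, 11.45 and 11.67 in rsEpiSC E5.75, 10.93 and 10.80 in those of E6.5, 9.20 and 9.34 in epiblast E5.75, and 9.17 and 8.98 in epiblast E6.5. The rsEpiSC arrays stood more than 1 unit above all others, and ESC, EpiSC and tissue lay close together. Between EpiSC and rsEpiSC E5.75 Hmgcs1 rose by 2.03 ± 0.24 (log2 difference ± SE of the fit, 4.07-fold, adjusted p = 0.000606).

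Farther along the mevalonate steps, Mvd (mevalonate diphosphate decarboxylase) was 8.26 and 7.36 in EpiSC and 9.03 and 9.42 in rsEpiSC E5.75, and rose by 1.42 ± 0.33 (adjusted p = 0.0348). Fdps, which makes farnesyl diphosphate, was 8.33 and 8.27 in ESC, 9.82 and 9.78 in EpiSC, 10.83 and 11.08 in rsEpiSC E5.75, 10.88 and 10.68 in those of E6.5, 7.74 and 8.51 in epiblast E5.75, and 7.32 and 8.01 in epiblast E6.5. Fdps formed steps, with the arrays of ESC and tissue low, EpiSC in the middle and both rsEpiSC groups high, and it rose by 1.16 ± 0.28 between EpiSC and rsEpiSC E5.75 (adjusted p = 0.0410). The kinases Mvk (0.36 ± 0.27) and Pmvk (1.24 ± 0.33, adjusted p = 0.0647) did not pass.

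In the steps from squalene to lanosterol, Lss, the lanosterol synthase, was 6.22 and 5.74 in ESC, 6.60 and 6.33 in EpiSC, 8.42 and 8.44 in rsEpiSC E5.75, 7.41 and 7.56 in those of E6.5, 6.32 and 6.82 in epiblast E5.75, and 6.91 and 5.82 in epiblast E6.5. Lss rose by 1.96 ± 0.35 from EpiSC to rsEpiSC E5.75 (3.90-fold, adjusted p = 0.0078). Sqle, the squalene epoxidase, rose by 1.30 ± 0.29 (adjusted p = 0.0271), and the squalene synthase gene Fdft1 did not pass (0.89 ± 0.28, adjusted p = 0.117).

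Among the genes that turn lanosterol into cholesterol, Cyp51 (lanosterol demethylase, 1.47 ± 0.30), Dhcr7 (1.40 ± 0.28, adjusted p = 0.0150) and Msmo1 (methylsterol oxidase, 1.38 ± 0.35, adjusted p = 0.0473) rose. Dhcr7 codes for the reductase of 7-dehydrocholesterol. It was 6.76 and 6.83 in ESC, 8.53 and 8.26 in EpiSC, 9.68 and 9.90 in rsEpiSC E5.75, 8.81 and 8.90 in those of E6.5, 5.85 and 6.47 in epiblast E5.75, and 6.25 and 6.76 in epiblast E6.5, so that no array of a cultured group overlapped another cultured group. Ebp, the sterol isomerase of this arm, did not follow. Ebp was 7.62 and 7.26 in ESC, 6.58 and 6.74 in EpiSC, 6.38 and 6.94 in rsEpiSC E5.75, 5.96 and 6.55 in those of E6.5, 4.87 and 5.29 in epiblast E5.75, and 4.75 and 5.09 in epiblast E6.5. Its EpiSC and rsEpiSC E5.75 arrays overlapped, and its difference was 0.00 ± 0.31. The reductase, dehydrogenase and desaturase genes Tm7sf2, Nsdhl, Hsd17b7 and Sc5d of this arm had differences of 0.59 to 0.88 and did not pass.

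**Figure D3:**
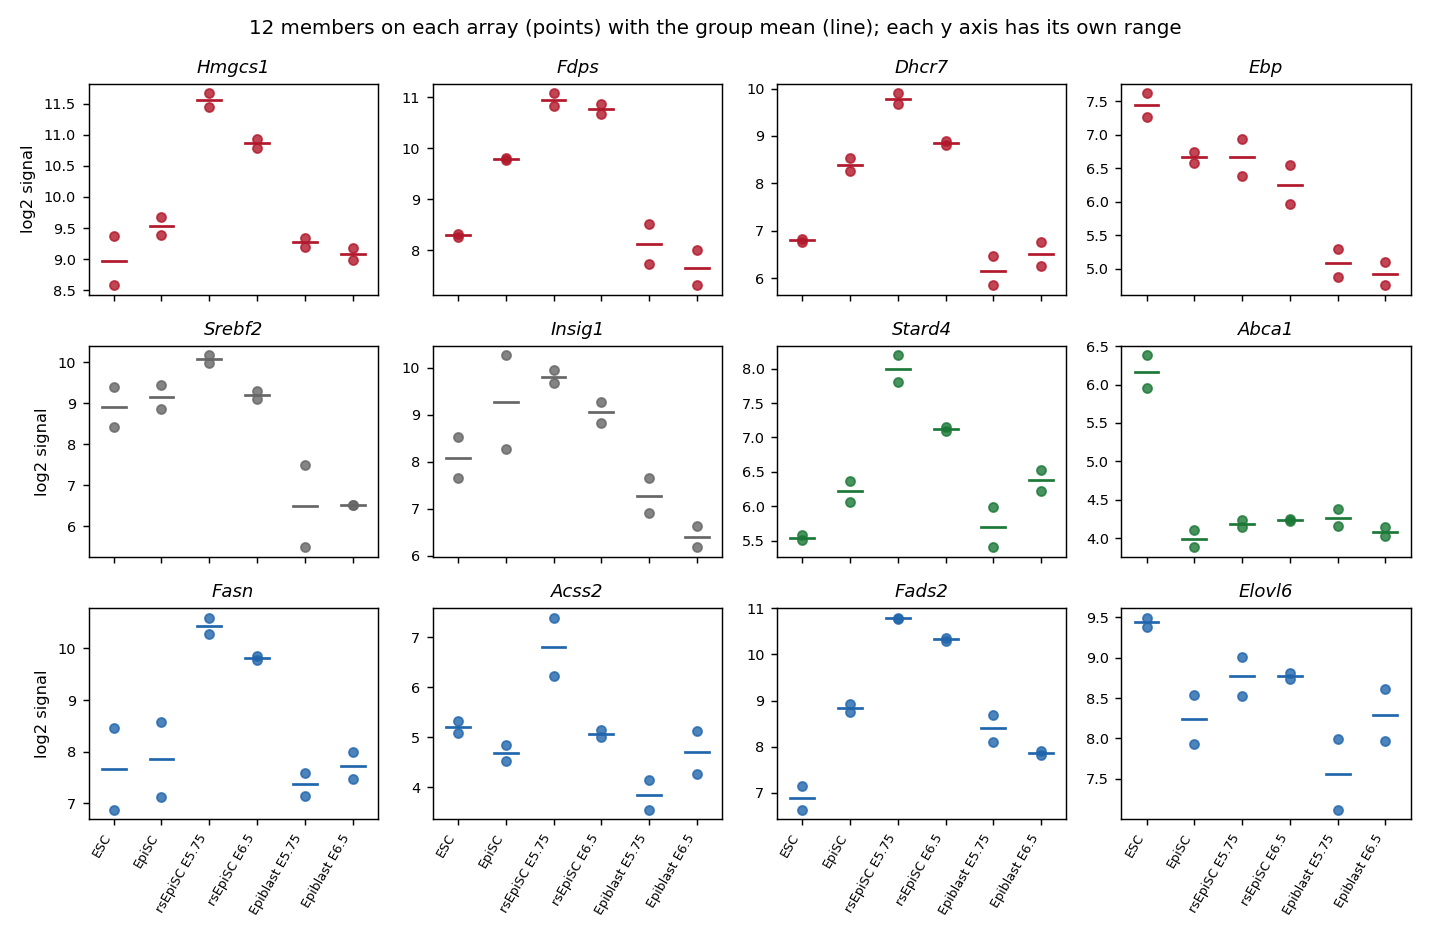
log2 signal of 12 members on each array (points) with the mean of the 2 arrays (line) in 6 groups, each panel with its own y axis. Fasn and Fads2 stand high in both rsEpiSC groups, Fdps and Dhcr7 step up from ESC over EpiSC to rsEpiSC E5.75, and Ebp and Abca1 stand highest in ESC.

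On the fatty acid side, the largest difference was that of Fasn, the fatty acid synthase. Fasn was 8.45 and 6.87 in ESC, 7.12 and 8.58 in EpiSC, 10.27 and 10.60 in rsEpiSC E5.75, 9.85 and 9.77 in those of E6.5, 7.14 and 7.59 in epiblast E5.75, and 7.98 and 7.47 in epiblast E6.5. All 4 rsEpiSC arrays lay above the rest, and the arrays within ESC and within EpiSC were over 1 unit apart. Fasn rose by 2.59 ± 0.50 from EpiSC to rsEpiSC E5.75 (6.01-fold, adjusted p = 0.0131). The call held in 8 of 11 alternative fits, and the difference ran from 1.86 without EpiSC replicate 1 to 3.32 without EpiSC replicate 2. Acaca, which makes malonyl-CoA for Fasn, was 5.95 and 6.77 in EpiSC and 7.69 and 7.95 in rsEpiSC E5.75 and rose by 1.47 ± 0.34 (adjusted p = 0.0315).

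Both genes that supply cytosolic acetyl-CoA rose. Acss2, the acetyl-CoA synthetase that uses acetate, was 5.32 and 5.09 in ESC, 4.52 and 4.85 in EpiSC, 6.22 and 7.40 in rsEpiSC E5.75, 5.003 and 5.14 in those of E6.5, 3.56 and 4.15 in epiblast E5.75, and 4.27 and 5.13 in epiblast E6.5. It was high in rsEpiSC E5.75 alone, while its rsEpiSC E6.5 arrays overlapped those of ESC. Acss2 rose by 2.12 ± 0.40 (adjusted p = 0.0102) and Acly, the ATP citrate lyase, by 1.88 ± 0.31 (adjusted p = 0.00471). Me1, the malic enzyme that supplies NADPH, had a difference of -0.32 ± 0.35 and did not pass.

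Of the genes that lengthen and desaturate chains, the desaturase genes Fads2 and Fads1 rose. Fads2 was 7.15 and 6.63 in ESC, 8.75 and 8.93 in EpiSC, 10.76 and 10.80 in rsEpiSC E5.75, 10.30 and 10.35 in those of E6.5, 8.10 and 8.69 in epiblast E5.75, and 7.89 and 7.82 in epiblast E6.5. The arrays of each rsEpiSC group lay close together, and those of ESC and of epiblast E5.75 lay farther apart. All rsEpiSC arrays were clear of the rest. Fads2 rose by 1.94 ± 0.25 (adjusted p = 0.000973) and Fads1 by 1.50 ± 0.28 (adjusted p = 0.00982), while Elovl6 (0.53 ± 0.34) and Scd1 (0.68 ± 0.48), both of which act on saturated chains, did not pass and had overlapping arrays.

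These calls rest on 2 arrays per group. Without any 1 array of EpiSC or of rsEpiSC E5.75, fewer genes of both branches rose, and fewer of all genes did too. Hmgcs1 and Fads2 passed in each of 11 alternative fits, and all 15 members that rose kept a difference above 0 in them. With arrays scaled to one interquartile range, 4 of the 8 sterol genes lost their call (Mvd, Fdps, Sqle and Msmo1), as did Acaca and Fads1.

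**Figure D4:**
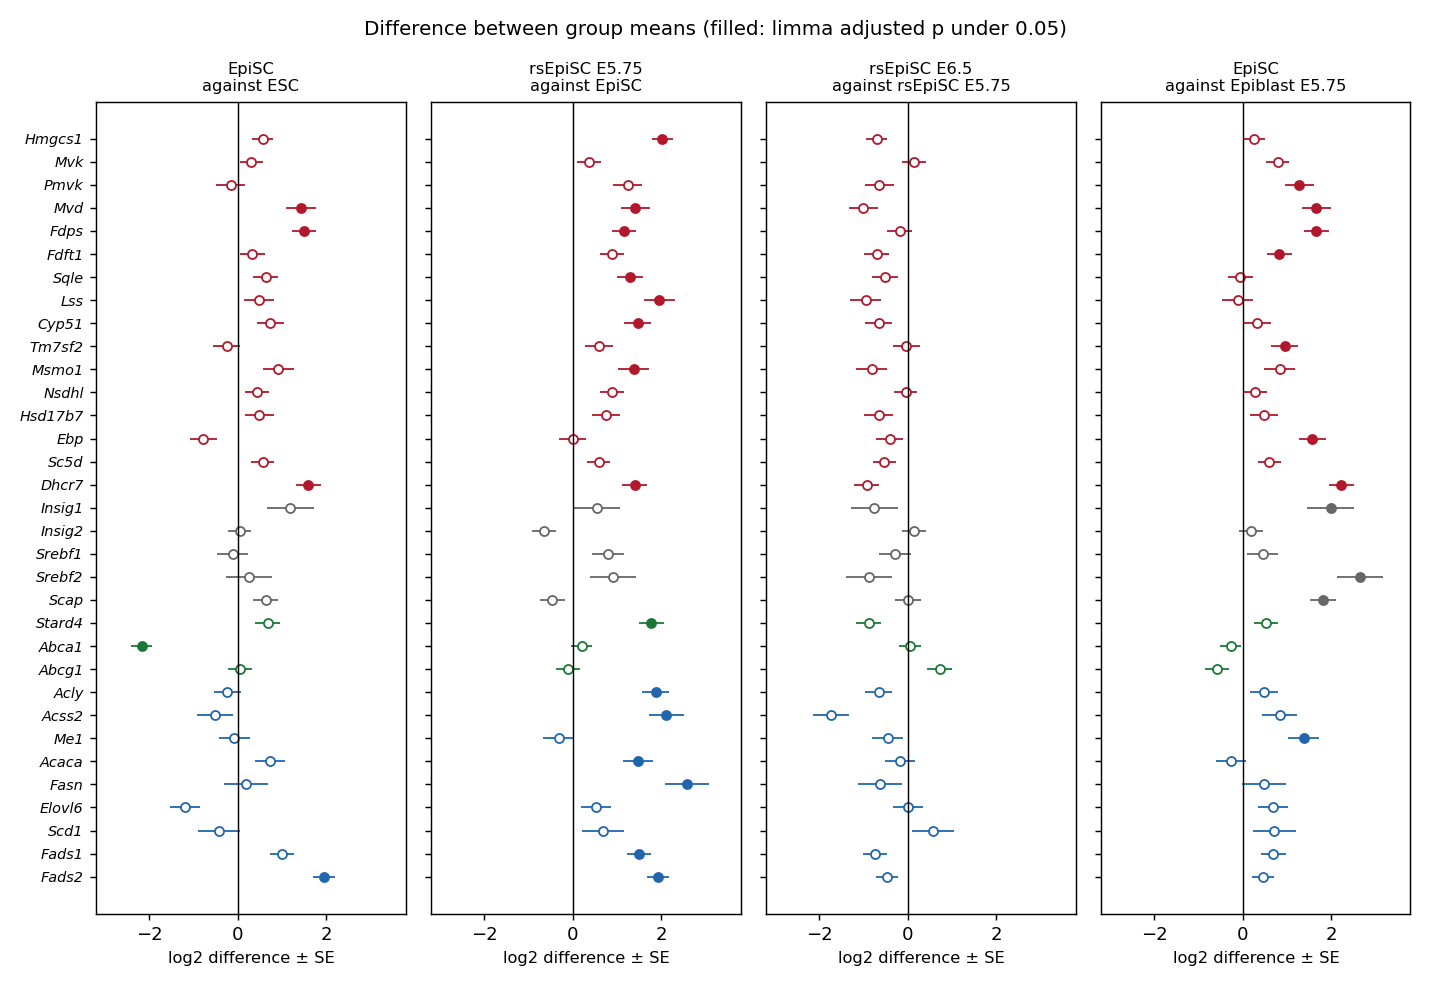
log2 difference between group means (points) ± SE of the limma fit (bars) for the 33 members in 4 comparisons, with filled points at an adjusted p under 0.05, coloured red for sterol synthesis, grey for regulators, green for sterol transport and blue for fatty acid synthesis. Filled points of both branches lie to the right of 0 for rsEpiSC E5.75 against EpiSC (15 members), and there are 0 filled points between the rsEpiSC stages.

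EpiSC, from the implanted epiblast, were compared with ESC, from the earlier embryo. The medium, the line and the embryonic day differ together here and cannot be told apart. Sterol synthesis genes were higher at 3 of 16: Dhcr7 (1.60 ± 0.28, adjusted p = 0.00411), Fdps (1.50 ± 0.28) and Mvd (1.43 ± 0.33, adjusted p = 0.0229). Beside this, 3.60% of all genes rose and 2.70% fell. On the fatty acid side 1 of 9 rose, Fads2 (1.95 ± 0.25, 3.85-fold, adjusted p = 0.000499). The median difference was 0.53 over the sterol genes and -0.08 over the fatty acid genes, beside 0.00 over all genes. Within the fatty acid branch the desaturase gene Fads1 (1.00 ± 0.28, adjusted p = 0.0560) and the elongase gene Elovl6 (-1.20 ± 0.34, adjusted p = 0.0561) had differences of opposite sign just short of the threshold.

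Elovl6 extends palmitate to stearate. Its log2 signal was 9.38 and 9.50 in ESC, 7.93 and 8.54 in EpiSC, 8.53 and 9.01 in rsEpiSC E5.75, 8.74 and 8.81 in those of E6.5, 8.00 and 7.12 in epiblast E5.75, and 8.61 and 7.97 in epiblast E6.5. Both ESC arrays were above all others, unlike those of Fasn and Fads2. With low signal filtered out, Fads1 also passed as higher and Elovl6 as lower. In this comparison 4 of 12 fibroblast markers rose in EpiSC (Mmp2, Acta2, Col1a2 and Tagln), and their part in the sterol result was not tested. Mvd lost its call without EpiSC replicate 1 or ESC replicate 2, and with only the arrays of both groups in the fit Mvd and Dhcr7 did.

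Set against ESC, rsEpiSC E5.75 differed at more members than in either comparison above. In all 12 of 16 sterol synthesis genes and 6 of 9 fatty acid synthesis genes rose and 0 fell, beside 5.49% of all genes that rose and 4.80% that fell. Dhcr7 was 7.97-fold higher (2.99 ± 0.28, adjusted p = 3.24e-05), Mvd 7.21-fold (2.85 ± 0.33), Fdps 6.31-fold (2.66 ± 0.28) and Hmgcs1 5.99-fold (2.58 ± 0.24). Fads2 was 14.8-fold higher (3.89 ± 0.25, adjusted p = 2.53e-06), Fasn 6.83-fold (2.77 ± 0.50) and Fads1 5.68-fold (2.51 ± 0.28). The sterol genes that did not pass were Mvk (0.67 ± 0.27), Pmvk (1.07 ± 0.33, adjusted p = 0.0644), Tm7sf2 (0.34 ± 0.31) and Ebp (-0.78 ± 0.31, adjusted p = 0.167). The same 4 fibroblast markers as in EpiSC rose. This comparison shares its arrays with the 2 before it, so its values are not independent of theirs. Medium, line and embryonic day again differ together and cannot be told apart.

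Of the regulators 0 of 5 passed between any 2 of ESC, EpiSC and rsEpiSC E5.75 in limma, and at an unadjusted p under 0.05 there were 2 for EpiSC against ESC (beside 3686 of 22180 genes), 2 for rsEpiSC E5.75 against EpiSC (beside 3036) and 3 for rsEpiSC E5.75 against ESC (beside 4542). Srebf2, which codes for SREBP-2, was 8.42 and 9.40 in ESC, 9.46 and 8.85 in EpiSC, 9.98 and 10.17 in rsEpiSC E5.75, 9.11 and 9.30 in those of E6.5, 5.49 and 7.50 in epiblast E5.75, and 6.52 and 6.52 in epiblast E6.5. Srebf2 stood highest on both rsEpiSC E5.75 arrays and low in tissue, where the arrays of E5.75 were 2 units apart. Its difference between rsEpiSC E5.75 and EpiSC, 0.92 ± 0.52, did not pass in limma (adjusted p = 0.518), although the arrays of these groups did not overlap.

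Insig1, itself a target gene of SREBP, was 7.65 and 8.52 in ESC, 10.27 and 8.27 in EpiSC, 9.69 and 9.95 in rsEpiSC E5.75, 9.28 and 8.83 in those of E6.5, 6.91 and 7.64 in epiblast E5.75, and 6.18 and 6.63 in epiblast E6.5. The EpiSC arrays were 2 units apart, and EpiSC replicate 1 was the highest of all 12. Insig2 ran the other way, with a lower mean in rsEpiSC E5.75 than in EpiSC (-0.66 ± 0.27, adjusted p = 0.282). Srebf1 differed by 0.80 ± 0.36 (adjusted p = 0.339) and Scap by -0.46 ± 0.29 (adjusted p = 0.596). The arrays measure RNA, and the cleavage of SREBP by which the pathway is controlled is not measured here.

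The sterol transport genes did not move together. Stard4, which codes for a carrier of cholesterol inside the cell, was 5.51 and 5.58 in ESC, 6.37 and 6.07 in EpiSC, 7.81 and 8.19 in rsEpiSC E5.75, 7.10 and 7.15 in those of E6.5, 5.40 and 5.99 in epiblast E5.75, and 6.53 and 6.23 in epiblast E6.5. It followed the synthesis genes, with all 4 rsEpiSC arrays on top, and rose by 1.78 ± 0.28 from EpiSC to rsEpiSC E5.75 (3.44-fold, adjusted p = 0.00381). Abca1, the exporter, was 6.38 and 5.96 in ESC, 3.88 and 4.10 in EpiSC, 4.14 and 4.23 in rsEpiSC E5.75, 4.24 and 4.23 in those of E6.5, 4.38 and 4.15 in epiblast E5.75, and 4.15 and 4.02 in epiblast E6.5. Abca1 was high in ESC alone and lay near the median of all values, 4.214, on the other 10 arrays. No detection call was used here, and both EpiSC arrays lay below that median, so differences from ESC are given without a fold. Abca1 fell by 2.18 ± 0.24 from ESC to EpiSC (adjusted p = 0.000175), and its difference between rsEpiSC E5.75 and ESC was -1.98 ± 0.24 (adjusted p = 0.000194). Abcg1, the related exporter, ranged from 4.51 to 5.72 over the 12 arrays and did not pass in any of the 8 comparisons (lowest adjusted p = 0.0993).

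The cultured lines were compared with epiblast of the same day. Sterol synthesis genes rose over tissue at 16 of 16 in rsEpiSC E5.75 (beside 11.5% of all genes that rose and 10% that fell) and at 14 of 16 in rsEpiSC E6.5 against epiblast E6.5 (beside 6.72% and 5.78%). They rose at 7 of 16 in EpiSC against epiblast E5.75 (beside 12.6% and 11.4%). For fatty acid synthesis genes the counts were 7, 5 and 1 of 9, and 0 genes of either branch fell. The median log2 difference less that of all genes was 1.92 (sterol) and 2.35 (fatty acid) for rsEpiSC E5.75, 1.91 and 1.43 for rsEpiSC E6.5, and 1.00 and 0.87 for EpiSC. With arrays scaled to one interquartile range these became 1.08 and 1.09, 1.32 and 0.70, and 0.19 and -0.24. As deposited, all genes had medians of -0.16, -0.10 and -0.19 in these comparisons.

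Among the synthesis genes, the largest differences over tissue in rsEpiSC E5.75 were those of Dhcr7 (3.63 ± 0.28, 12.4-fold, adjusted p = 2.17e-05), Mvd (3.09 ± 0.33), Fdps (2.83 ± 0.28) and Pmvk (2.52 ± 0.33), and on the fatty acid side Fasn (3.07 ± 0.50) and Acss2 (2.96 ± 0.40). The Acss2 mean in epiblast E5.75 (3.85) lay below the median of all values, 4.214, so it is given without a fold. In rsEpiSC E6.5 they were those of Fdps (3.11 ± 0.28, 8.66-fold, adjusted p = 9.14e-05) and Msmo1 (2.82 ± 0.35), with Scd1 (2.52 ± 0.48) and Fads2 (2.47 ± 0.25) for fatty acids. Acss2 was not among them at that stage (0.37 ± 0.40, adjusted p = 0.577). In EpiSC the sterol genes that rose over tissue were Dhcr7 (2.23 ± 0.28, adjusted p = 0.000274), Fdps, Mvd, Ebp, Pmvk, Tm7sf2 and Fdft1, and the fatty acid gene was Me1 (1.38 ± 0.35, adjusted p = 0.0158). Ebp, which did not change between EpiSC and rsEpiSC E5.75 arrays beyond their spread, was higher over tissue by 1.58 in both.

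Of the 5 regulators, 3 rose over tissue in EpiSC, 4 in the E5.75 rsEpiSC and 3 in those of E6.5. Beside them, 12.6%, 11.5% and 6.72% of all genes rose. With arrays scaled to one interquartile range, 2, 2 and 3 regulators rose, beside 2068, 1700 and 859 of all 22180 genes. Srebf2 was 12.0-fold higher in rsEpiSC E5.75 than in epiblast E5.75 (3.58 ± 0.52, adjusted p = 0.000864), 6.33-fold in EpiSC (2.66 ± 0.52) and 6.42-fold in rsEpiSC E6.5 against epiblast E6.5 (2.68 ± 0.52). The epiblast E5.75 arrays of Srebf2, at 5.49 and 7.50, stood 2 units apart: without replicate 1 or 2 of that tissue the difference was 2.58 or 4.59 for rsEpiSC E5.75 and 1.66 or 3.67 for EpiSC. Insig2 did not pass in the 3 comparisons (0.18 for EpiSC, -0.48 for rsEpiSC E5.75 and -0.12 for those of E6.5). Insig1 rose in all 3 comparisons (1.99 to 2.65), Scap in EpiSC (1.82 ± 0.29) and rsEpiSC E5.75 (1.36 ± 0.29), and Srebf1 in both rsEpiSC groups (1.26 ± 0.36 and 1.60 ± 0.36). In rsEpiSC E5.75 the Srebf1 call held in 5 of 11 alternative fits, and the Scap call was lost with the mean of its probe sets, with one interquartile range and without rsEpiSC E5.75 replicate 2. The Insig1 call in EpiSC held in 7 of 11, and was lost with one interquartile range, with only the arrays compared, and without EpiSC replicate 1 or epiblast E5.75 replicate 1. As deposited, Mvk, Pmvk, Tm7sf2, Ebp, Insig1, Srebf2 and Scap were lower on all 4 tissue arrays than on all 8 cultured arrays. That is 7 of 33 members beside 7.38% of all genes, and 0 of them are fatty acid synthesis genes. Mvk and Insig1 left this list with quantile normalization (5.81% of all genes). Insig1 and Scap left it with one interquartile range (4.68%).

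Tissue and culture arrays differed in spread, with an interquartile range over genes of 2.23 to 2.68 in tissue and 3.07 to 3.31 in culture, and the comparison of EpiSC with tissue depends on it. With arrays scaled to one range, 12 members turned sign there, 3 sterol genes rose and 2 fell (Hmgcs1 and Sqle), and the fatty acid median was -0.24. Beside this, 2068 of all 22180 genes rose and 2822 fell. The share of all called genes that were higher went from 52.5% to 42.3%. For rsEpiSC this share went from 53.5% to 38.9% at E5.75 and from 53.8% to 27.3% at E6.5. The sterol genes that rose still numbered 11 and 10 of 16 and the fatty acid genes 4 and 2 of 9. Beside them, 1700 and 859 of all 22180 genes rose. The differences stayed above 0 for all 16 sterol genes, while Me1 and Elovl6 turned sign at E6.5. Sterol genes that rose over tissue numbered 9 without rsEpiSC E5.75 replicate 2, and 4 in EpiSC without either EpiSC array. Fatty acid genes that rose in EpiSC numbered 0 without either EpiSC array and 2 without epiblast E5.75 replicate 2, and in rsEpiSC E6.5 they numbered 1 without either of its arrays and 3 without either epiblast E6.5 array. As deposited, fibroblast markers that rose over tissue numbered 6 of 12 in EpiSC, 5 in the E5.75 rsEpiSC and 1 in the E6.5 rsEpiSC. Beside them, 12.6%, 11.5% and 6.72% of all genes rose. In each comparison 1 fibroblast marker (Dcn) fell, beside 11.4%, 10% and 5.78% of all genes. The part of feeder cells in these results was not tested.

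Between the stages, 0 of 33 members passed in limma, in the lines or in the tissue. Of all genes 0.0857% passed between the stages of rsEpiSC and 0.0225% between those of tissue. In rsEpiSC the line and the embryonic day differ together and cannot be told apart. Of the members, 15 of 16 sterol synthesis genes and 7 of 9 fatty acid synthesis genes had a lower mean in rsEpiSC E6.5 than in rsEpiSC E5.75 (medians -0.65 and -0.46), beside 11283 of 22180 genes with a lower mean. At an unadjusted p under 0.05 there were 7 and 2, beside 1033 of all genes. Values were -1.01 ± 0.33 for Mvd, -0.95 ± 0.35 for Lss, -0.93 ± 0.28 for Dhcr7 and -1.74 ± 0.40 for Acss2 (adjusted p = 0.238). Fdps (-0.18 ± 0.28) and Nsdhl (-0.05 ± 0.27) were close to 0 with overlapping arrays. Of 12 fibroblast markers, 10 had a lower mean in rsEpiSC E6.5, and 4 had an unadjusted p under 0.05 in limma. Of 5 primed state markers, 4 had a higher mean there, and 4 had an unadjusted p under 0.05. In both lists 0 passed, and the part of these cell differences in the result was not tested. With only the 4 rsEpiSC arrays in the fit, 4 sterol genes and 1 fatty acid gene passed as lower in rsEpiSC E6.5. Of all 22180 genes, 88 passed as lower in that fit and 69 as higher.

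In tissue, 14 of 16 sterol synthesis genes had a lower mean at E6.5 (median -0.38) and 6 of 9 fatty acid synthesis genes a higher one (median 0.16), with 3 and 0 at an unadjusted p under 0.05. Of all 22180 genes, 11380 had a lower mean at E6.5 and 2819 had an unadjusted p under 0.05. Msmo1 was 7.65 and 7.86 at E5.75 and 6.49 and 6.18 at E6.5 (-1.42 ± 0.35, adjusted p = 0.169), and Nsdhl was 7.97 and 8.60 against 7.49 and 7.36 (-0.86 ± 0.27). The difference between stages in rsEpiSC less that in tissue passed for 0 of 33 members and for 2 of 22180 genes, with 1919 genes at an unadjusted p under 0.05. Its smallest p among members was that of Acss2 (-2.58, adjusted p = 0.228), whose stage difference was -1.74 in the lines and 0.85 in tissue. Stard4 also differed in sign, at -0.88 and 0.68 (adjusted p = 0.318 for the difference).

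A further 19 genes of sterol and isoprenoid metabolism included synthesis genes (Acat1, Ggps1, Idi2 and Lbr) and genes of uptake, lysosomal transport and control. Between EpiSC and rsEpiSC E5.75, 0 of them passed in limma, beside 1.56% of all genes that rose and 2.31% that fell. At an unadjusted p under 0.05 there was 1, beside 3036 of all 22180 genes. In EpiSC against ESC 2 rose and 1 fell, beside 3.6% and 2.7% of all genes. Those that rose were the retinol dehydrogenase gene Rdh11 (1.59 ± 0.24) and Vldlr, a lipoprotein receptor (1.53 ± 0.33), and the sterol hydroxylase gene Cyp27a1 fell (-1.32 ± 0.25). In rsEpiSC E5.75 against ESC 3 rose, led by the lysosomal lipase gene Lipa (1.96 ± 0.40), and 2 fell, Cyp27a1 and Erlin1. The shares of all genes were 5.49% and 4.8%. Over tissue 7 of 19 rose and 1 fell in EpiSC, 9 rose in rsEpiSC E5.75, and 5 rose in rsEpiSC E6.5. Beside this, 12.6%, 11.5% and 6.72% of all genes rose, and 11.4%, 10% and 5.78% fell. Npc2, a cholesterol carrier of lysosomes, rose in all 3 comparisons (3.18 ± 0.27, 2.92 ± 0.27 and 2.10 ± 0.27 in that order), as did the lipoprotein receptor gene Scarb1 (2.64 ± 0.38, 3.20 ± 0.38 and 1.86 ± 0.38).

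Of 23 further genes of fatty acid metabolism, 2 rose and 2 fell in rsEpiSC E5.75 against EpiSC, beside 1.56% and 2.31% of all genes. Elovl2 (2.12 ± 0.31, adjusted p = 0.00208) and Elovl5 (0.98 ± 0.19, adjusted p = 0.0117), elongases of polyunsaturated chains on which Fads1 and Fads2 act, rose. Cpt1a, which admits fatty acids to mitochondria for oxidation, fell by 3.12 ± 0.25 (adjusted p = 5.81e-05) to a mean of 4.11, below the median of all values, 4.214, and Mlxipl, which codes for the glucose-responsive factor ChREBP, fell by 1.83 ± 0.30. Against ESC, 5 rose in rsEpiSC E5.75 and 3 fell, beside 5.49% and 4.8% of all genes. Those that rose were led by the fatty acid binding protein gene Fabp5 (2.36 ± 0.19) and the acyl-CoA synthetase gene Acsl4 (2.19 ± 0.32). The mitochondrial citrate carrier gene Slc25a1 came next (1.33 ± 0.23). Cpt1a (-3.63 ± 0.25) was among those that fell. In EpiSC against ESC 3 rose, Fabp5 (2.66 ± 0.19), Acsl4 (1.55 ± 0.32) and Mlxipl (1.42 ± 0.30), and 0 fell. The shares of all genes were 3.6% and 2.7%. Over tissue 11 of 23 rose in EpiSC and 1 fell, 9 rose in rsEpiSC E5.75, and 6 rose in rsEpiSC E6.5. The shares of all genes that rose were again 12.6%, 11.5% and 6.72%, and those that fell 11.4%, 10% and 5.78%. Tecr, which reduces the double bond left by elongation, was among the 3 largest in both rsEpiSC groups (1.97 ± 0.27 and 1.63 ± 0.27).

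Over the 12 arrays, most sterol synthesis genes followed one another. The Pearson correlation of each with the mean of the other sterol synthesis genes was 0.78 to 0.96 for 15 of the 16 and 0.48 for Ebp. The fatty acid genes Elovl6 (0.32) and Me1 (0.37), the regulator Insig2 (-0.42) and the exporters Abca1 (-0.19) and Abcg1 (-0.09) followed the sterol mean least, and the other members had values of 0.66 to 0.89. Genes outside the list were ranked by the same correlation, with small RNAs and symbols of the Gm and Rik kind left out. The 10 most like the sterol mean were Elovl5, Trp53i11, Slc25a1, Aurkb and Lman2l (0.97 each), Arhgap33, Rnf26, Arfrp1 and Sox1 (0.96), and Map1b (0.95). Slc25a1, whose carrier brings citrate to the cytosol for Acly, had its highest mean in rsEpiSC E5.75 (10.01), ahead of rsEpiSC E6.5 (9.48), EpiSC (9.32) and ESC (8.68), and its lowest in epiblast of E5.75 (8.25) and of E6.5 (7.93). The points share arrays and groups, so these correlations describe the 6 groups and are no test.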

How the data were processed

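Per the labels' protocols, total RNA of 12 samples was amplified and carried a biotin label. The labels name an array for human genes, but the probe set identifiers match a mouse array, whose annotation was used. The table deposited by the authors holds log2 signal, for which the submitters' processing notes name oligo and RMA. The versions of both are not given here, since the sources used state none.

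Of 41345 probe sets, 23521 carried 1 symbol, 1814 several and 16010 none. The brightest probe set of a gene was kept (22180 genes, no filter). Group means were fitted with limma 3.58.1 in R 4.3.3 (lmFit, eBayes with a variance trend). The p-values were corrected across all 22180 genes by Benjamini-Hochberg in each of 8 comparisons, with 0.05 as the threshold. The fit was tested on simulated data first. For rsEpiSC E5.75 against EpiSC it called 19 of 100 genes with a simulated log2 change of 1, and 83 of 100 with 2. A member that did not pass may therefore still differ. The number of arrays limits the precision. Depth does not apply to arrays.

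The members and lists were chosen with earlier results of these data known. The text gives full statistics for members that passed with the largest differences (up to 6 sterol and 4 fatty acid genes, all regulators and transport genes), up to 3 that did not pass, and up to 3 other pathway genes per direction; the remaining members were named with values beside them. Alternatives were a replicate block, other scalings, a low signal filter, other fits and leaving out each array. Strain and passage fields, which count up from array to array, were not used. Same-numbered arrays were not paired, since their deviations correlated at -0.26 to 0.06.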

Additional observations from a re-analysis of the deposited data

How the results depend on the processing

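Of 101 calls of members over the comparisons, 1 changed sign under an alternative: Fdft1 in EpiSC against epiblast E5.75 was -0.33 with arrays scaled to one interquartile range (adjusted p = 0.507). Counts below are of called genes, and the cause of each change was not tested. Replicate numbers do not pair the samples, and with the replicate block the fatty acid genes numbered 2 in EpiSC against ESC (2 also with the ESC numbers crossed, a fit added after the data were seen) and 2 in EpiSC against epiblast E5.75, and all genes 1 between tissue stages. The block ended 3 calls of members, those of Mvd and Msmo1 in rsEpiSC E5.75 against EpiSC and of Fdft1 in EpiSC against epiblast E5.75. The low signal filter gave 3 fatty acid genes in EpiSC against ESC and 8 genes between tissue stages. Scaling to one interquartile range gave 4 sterol and 542 genes for rsEpiSC E5.75 against EpiSC, 9 and 36 genes between rsEpiSC and tissue stages, and 0, 4 and 2 fatty acid genes over tissue in EpiSC, rsEpiSC E5.75 and rsEpiSC E6.5. Quantile normalization gave 13 genes between tissue stages, and 4 sterol and 0 fatty acid genes in EpiSC over tissue. Fitting only the arrays compared gave 1 sterol and 558 genes in EpiSC against ESC, 4 sterol, 1 fatty acid and 157 genes between rsEpiSC stages, 0 between tissue stages, 4 sterol, 0 fatty acid and 2316 genes in EpiSC over tissue, and 2909 genes in rsEpiSC E5.75 over tissue. Leaving out 1 array gave 1 to 4 sterol, 1 to 5 fatty acid and 318 to 626 genes for rsEpiSC E5.75 against EpiSC, 829 to 1388 genes for EpiSC against ESC and 1027 to 2065 for rsEpiSC E5.75 against ESC. It gave 3 to 15 and 0 to 155 genes between rsEpiSC and tissue stages. Over tissue it gave 4 to 5 sterol, 0 to 2 fatty acid and 2458 to 6100 genes in EpiSC, 9 to 15 sterol and 1627 to 5504 genes in rsEpiSC E5.75, and 1 to 3 fatty acid and 553 to 1872 genes in rsEpiSC E6.5. The sterol mean became 7.31 for ESC, 7.25 for epiblast E5.75 and 6.78 for epiblast E6.5 with quantile normalization, and 7.21, 7.70, 8.74, 8.26, 7.53 and 6.97 for ESC, EpiSC, rsEpiSC E5.75, rsEpiSC E6.5, epiblast E5.75 and epiblast E6.5 with one interquartile range. The fatty acid mean became 7.23 in epiblast E6.5 with quantile normalization, and 8.69, 8.26, 7.40 and 7.50 in rsEpiSC E5.75, rsEpiSC E6.5, epiblast E5.75 and epiblast E6.5 with one interquartile range. Under both scalings rsEpiSC E5.75 had the highest mean of both branches, while with one interquartile range ESC (7.26) had the lowest fatty acid mean.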
